A study of Homo sapiens with 4 samples.

Results

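The 10 genes described here are VEPH1, PTPRC, DOCK2, LINC00624, PSAP, DYNC1LI2, RIC8A, SMPD4P1, FCGR2C and CCDC26. They were chosen by measured coverage, out of 17771 genes with at least 1 read over an annotated intron: the number of nascent reads over their introns, scaled to the library total, differed widely between K562 cells with mutant SF3B1 and those with the wild-type protein. That coverage difference is therefore the basis of the choice, and its values are given as a description with no test. The 10 genes hold 254 of the 209498 introns with a read. K562 is a human chronic myeloid leukaemia line; per the labels, 2 samples carried SF3B1 K700E and 2 carried wild-type SF3B1 (WT), and expression of the modified allele had been induced in all 4 with doxycycline at 1 µg/ml for 4 days. SF3B1 is the U2 snRNP subunit that holds the branch point region of an intron, and K700E is its recurrent leukaemia-associated substitution. RNA bound to chromatin, prepared with α-amanitin at 25 µM in the buffers, was freed of polyadenylated and ribosomal RNA and read with PacBio long reads. The labels do not say whether replicates came from separate cultures or whether each line is 1 clone, so the spread between samples may be technical. Replicate numbers are those of the titles; the deposited tables number the K700E samples 2 and 3, so a shared number does not tie a K700E sample to a WT sample.

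RNA polymerase II carries its unfinished transcript with it, so chromatin-bound RNA that still spans introns reports on transcription rather than on the stable messenger RNA pool. Much splicing takes place while the polymerase is still moving. A long read over an intron either retains it or carries its splice junction, and the share of reads with the junction is the co-transcriptional splicing efficiency. Several of the 10 encode proteins of blood cells: PTPRC is the leukocyte phosphatase CD45, DOCK2 activates RAC in leukocytes, and FCGR2C belongs to the receptors for the constant part of immunoglobulin G.

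Over all unique annotated introns the K700E libraries held 459710 and 909630 read-intron overlaps and the WT libraries 1346699 and 1184932. A read that spans several introns counts once in each, so overlaps outnumber reads. The highest count at any single intron of a gene is given as the least number of reads behind it. Tests and intervals on sums over introns treat overlaps as separate reads. Levels are given as OPM, overlaps per 1000000 of the library total. On this scale the median gene lay 0.20 higher in K700E on the log2 scale, against -0.02 with TMM scaling, and none of the 10 genes changed direction under TMM or DESeq2 size factors. The labels call the cells epithelial, but genes of the erythroid and K562 list summed to 3130 and 3477 OPM in K700E and 3386 and 6039 in WT, whereas epithelial genes summed to 58.7 and 107 in K700E and 70.5 and 50.6 in WT. TFRC was the largest part of the erythroid sum, with 1588 and 1886 OPM in K700E and 2091 and 3014 in WT. ALAS2 had 93.5 and 179 in K700E and 333 and 944 in WT. BCR, also a large part of the sum, had 1029 and 502 in K700E and 485 and 925 in WT. GATA1 was low, with 13.1 and 11.0 in K700E and 2.97 and 9.28 in WT. The 2 epithelial genes that passed the filter of the coverage fit were not lower than GATA1 in most samples. KRT8 had 10.9 and 18.7 in K700E and 25.2 and 20.3 in WT, and KRT18 had 15.2 and 34.1 in K700E and 36.4 and 17.7 in WT. Of 15 erythroid genes KLF1 and EPOR had no read in any sample, 3 of 10 epithelial genes had none (KRT5, CLDN4 and GRHL2), and 9 of 16 genes of other leukocytes had none, among them CD14, CSF1R, MPO and PAX5. The leukocyte list summed to 34.8 and 69.3 OPM in K700E and 11.9 and 52.3 in WT, and its part in the values of PTPRC, DOCK2 and FCGR2C was not tested. In such bulk samples fewer cells that transcribe a gene and fewer transcripts per cell cannot be told apart.

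In edgeR's quasi-likelihood test over all genes, 0% of 8608 genes passed an adjusted p of 0.05 for coverage, 428 had an unadjusted p under 0.05 and DESeq2 called 25. All 10 genes passed the filter on low counts for that fit. Of the 10, 2 had both K700E values above both WT values, 6 had both below, and in 2 the groups overlapped. Over all genes tested 22.5% had both K700E values above and 12.3% both below. As coverage chose the genes, nothing is read from these counts.

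**Figure D1:**
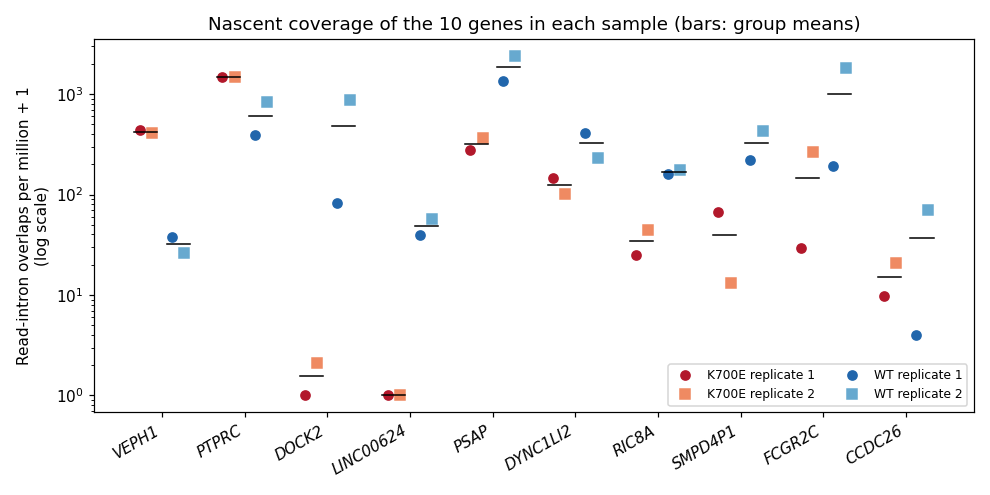
Read-intron overlaps per 1000000 (OPM) plus 1, on a log scale, for each of the 10 genes in the 2 K700E samples (red and orange) and the 2 WT samples (dark and light blue), with black bars at the group means. VEPH1 and PTPRC lie higher in K700E, DOCK2 and LINC00624 lie at or near 0 overlaps in K700E, and the 2 WT samples lie far apart for DOCK2, FCGR2C and CCDC26.

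VEPH1 was the gene of the 10 with the highest ratio of K700E to WT. It encodes a pleckstrin homology domain protein named for its expression in the ventricular zone of the developing brain (ENSG00000197415.11, chromosome 3, 157259742 to 157533619, GRCh38, minus strand). It had 433 and 411 OPM in the K700E samples, against 36.4 and 25.3 in the WT samples. Both K700E samples lay above both WT samples, and the replicates of each line lay close together. The means were 422 ± 15.4 in K700E and 30.9 ± 7.83 in WT (SD, n = 2 each), a ratio of 13.7. The least number of reads behind these values was 15 and 25 in K700E and 3 and 2 in WT.

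The VEPH1 reads in K700E sat at the 5′ end of the gene. Of overlaps over its 19 non-overlapping introns, 84.2% and 82.6% in K700E fell on the 9 nearest the 5′ end, against 70.0% and 60.0% in WT, where they rest on 30 and 15 overlaps. Across 4541 genes the median of the same share was 56.7% and 62.5% in K700E and 54.8% and 59.5% in WT. Over the intron nearest the 5′ end (157505410 to 157533512, 28103 nt) there were 15 and 24 reads in K700E and 2 and 2 in WT. From its 5′ splice site 3 and 10 junction reads in K700E removed this intron, and 12 and 14 removed the longer one from 157495507 to 157533512, past the exon that lies between. In WT the shorter one was removed in 1 and 0 reads and the longer one in 1 and 2. The longer one thus made up 80.0% (95% Wilson interval 54.8 to 93.0%) and 58.3% (38.8 to 75.5%) of the junction reads in the K700E samples, and the WT samples held too few to set beside them, 2 each. The coding VEPH1 junction with the most junction reads removes the intron from 157460356 to 157470313; it is shown as the exon sequence of that spliced junction, with the upstream exon in lower case and the downstream exon in capitals.
VEPH1 exon junction: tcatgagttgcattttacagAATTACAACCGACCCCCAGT

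PTPRC encodes CD45, the receptor tyrosine phosphatase that sets the activity of SRC family kinases in leukocytes (ENSG00000081237.19, chromosome 1, 198638457 to 198757476, plus strand). It had 1459.6 and 1459.9 OPM in the K700E samples, against 388 and 825 in the WT samples. The K700E samples were nearly equal and both lay above the WT samples, which differed 2.13-fold from each other. The means were 1459.8 ± 0.225 in K700E and 607 ± 309 in WT (SD, n = 2 each), a ratio of 2.41. Leaving out WT replicate 1 lowered this ratio to 1.77, while dropping WT replicate 2 raised it to 3.76. Scaled to the library, both K700E counts exceeded both WT counts at 31 of its 40 introns and fell short of both at 0. Coverage chose the gene and a read can count at several introns, so the introns are not separate observations of the difference.

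Where along PTPRC the reads lay differed more between replicates than between lines. Over the intron of 88 nt near the 5′ end (198639138 to 198639225) there were 33 and 161 reads in K700E and 28 and 93 in WT. The 16 introns nearest the 5′ end took 41.1% and 65.2% of overlaps in K700E and 37.6% and 58.6% in WT. In both lines replicate 2 thus held more of its PTPRC reads towards the 5′ end than replicate 1. Across 4541 genes the median share in the 5′ introns was 56.7% and 62.5% in K700E and 54.8% and 59.5% in WT. The median over genes thus moved in the same direction between replicates, but by much less than the PTPRC share did. The numbers do not tie samples across lines.

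PTPRC is known for 3 variable exons, A, B and C, whose skipping gives the short CD45RO form. Transcripts that left the constant exon ahead of them (5′ splice site at 198692374) joined past all variable exons in 5 and 21 junction reads in K700E and 1 and 10 in WT. They joined to exon B in 2 and 9 reads in K700E and 1 and 6 in WT, and to exon A in 0 and 1 reads in K700E and 0 and 0 in WT. The junction past all variable exons was the commonest of these in 3 of 4 samples and tied in WT replicate 1, at 71.4% (35.9 to 91.8%) and 67.7% (50.1 to 81.4%) in K700E and 50% (9.45 to 90.5%) and 62.5% (38.6 to 81.5%) in WT (95% Wilson intervals). The intervals of all 4 samples overlap, and no difference was detectable at this depth. These 2 junctions share their upstream exon and are shown to mark the sequence that tells the forms apart, with the downstream exon in capitals.
PTPRC RO junction: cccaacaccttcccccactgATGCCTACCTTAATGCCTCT
PTPRC exon B junction: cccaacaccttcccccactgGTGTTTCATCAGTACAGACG

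DOCK2 encodes a guanine nucleotide exchange factor for RAC that drives leukocyte migration (ENSG00000134516.16, chromosome 5, 169637247 to 170083382, plus strand). It had 0 and 1.10 OPM in the K700E samples, against 81.7 and 870 in the WT samples. The K700E value rests on 1 overlap, a spliced intron near the 3′ end (170057667 to 170067509), in replicate 2. The WT samples differed 10.7-fold from each other, with at least 6 and 60 reads behind them. Without WT replicate 2 the K700E minus WT difference of -475 OPM was -81.1.

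DOCK2 reads in WT replicate 2 were most frequent inside the gene, in its 5′ part by distance: 9 reads lay over the intron nearest the 5′ end, 60 over the intron from 169714458 to 169716212, and 5 over that from 170027949 to 170034398. In WT replicate 1 the same 3 introns had 0, 3 and 1 reads. The most covered intron, between coding exons, carried its junction in 3 of 3 reads in WT replicate 1 and 59 of 60 in WT replicate 2 (98.3%, 95% Wilson interval 91.1 to 99.7%), and no read over it was found in K700E. Its junction is shown as the DOCK2 sequence most often read in WT and not read in K700E.
DOCK2 exon junction: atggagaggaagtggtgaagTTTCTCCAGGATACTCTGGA

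LINC00624 is a long non-coding RNA that GENCODE types as antisense and that overlaps the chromatin remodeller gene CHD1L on the opposite strand (ENSG00000278811.4, chromosome 1, 147258885 to 147517875, minus strand). It had 0 and 0 OPM in the K700E samples, against 38.6 and 56.5 in the WT samples. The least number of reads was 0 and 0 in K700E and 16 and 20 in WT. Counting 3 reads over both K700E libraries together as the limit, these reads were at least 6.56-fold lower in K700E, or 5.42-fold without WT replicate 2. The sources used here do not say whether reads were counted by strand. CHD1L had 154 and 309 OPM in K700E and 248 and 263 in WT, with overlapping groups. LINC00624 reads in WT covered all 5 of its introns, with 16 and 20 reads over the most covered one (147514449 to 147515520), of which 16 and 19 carried the junction. That junction, of non-coding exons, is shown as a sequence read in both WT samples and in neither K700E sample.
LINC00624 exon junction: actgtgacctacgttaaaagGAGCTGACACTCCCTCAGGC

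PSAP encodes prosaposin, the precursor of the saposins that help lysosomal enzymes break down sphingolipids (ENSG00000197746.13, chromosome 10, 71816298 to 71851375, minus strand). It was the most covered of the genes that stood lower in K700E. It had 274 and 366 OPM in the K700E samples, against 1332 and 2397 in the WT samples. At all 17 of its introns both K700E values, scaled to the library, lay under both WT values. As for PTPRC, introns that share reads are not separate observations, and coverage chose the gene. The means were 320 ± 65.1 in K700E and 1864 ± 753 in WT (SD, n = 2 each), a ratio of 0.172. Reads were fewer towards the 3′ end in every sample: over the intron nearest the 5′ end there were 16 and 33 reads in K700E and 144 and 323 in WT, and over the one nearest the 3′ end 1 and 4 in K700E and 21 and 20 in WT.

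**Figure D2:**
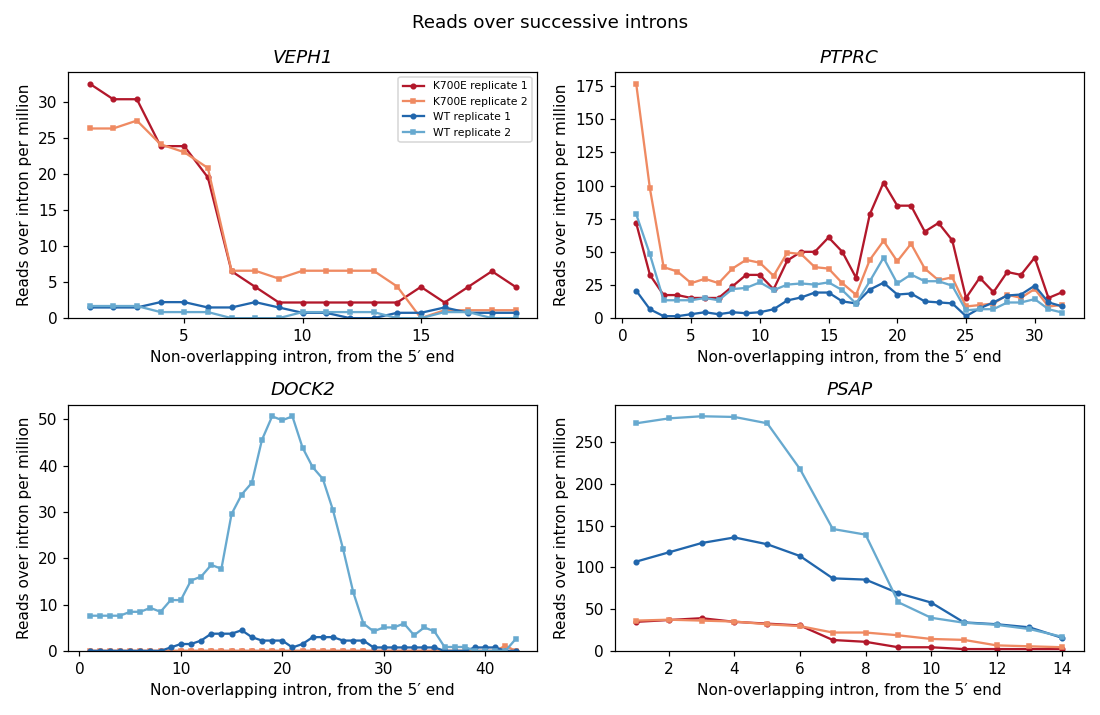
Reads over each non-overlapping intron, per 1000000 overlaps of the library, from the 5′ to the 3′ end of VEPH1, PTPRC, DOCK2 and PSAP, with 1 line per sample (K700E in red and orange, WT in dark and light blue). VEPH1 reads in K700E and PSAP reads in all samples are most frequent towards the 5′ end, DOCK2 reads in WT replicate 2 peak near the middle of the intron order, in the 5′ part of the gene by distance, and PTPRC has a peak at the 5′ end and another in its 3′ part.

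DYNC1LI2 encodes a light intermediate chain of cytoplasmic dynein, the motor that carries cargo towards microtubule minus ends (ENSG00000135720.12, chromosome 16, 66720893 to 66751798, minus strand). It had 144 and 101 OPM in the K700E samples, against 413 and 229 in the WT samples. The groups did not overlap, but the lower WT sample lay nearer to the K700E samples than to the other WT sample. The ratio of means was 0.381, the least extreme among the genes lower in K700E whose groups did not overlap. At 20 of its 24 introns both scaled K700E values lay under both WT values, again over introns that share reads in a gene chosen by coverage.

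RIC8A encodes a chaperone and exchange factor of G protein alpha subunits (ENSG00000177963.14, chromosome 11, 207511 to 215113, plus strand). It had 23.9 and 42.9 OPM in the K700E samples, against 160 and 175 in the WT samples. The WT samples were close together, and the K700E values rest on at least 1 and 5 reads. The means were 33.4 ± 13.4 in K700E and 167 ± 10.6 in WT (SD, n = 2 each), a ratio of 0.200.

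SMPD4P1 is a transcribed pseudogene related to SMPD4, which encodes a neutral sphingomyelinase (ENSG00000223553.6, chromosome 22, 20602595 to 20656914, minus strand). It had 65.3 and 12.1 OPM in the K700E samples, against 218 and 431 in the WT samples. The groups did not overlap, but the K700E samples lay far apart, with at least 7 and 2 reads in K700E and 59 and 121 in WT. The ratio of means was 0.119, and 0.0373 without K700E replicate 1, 0.201 without K700E replicate 2. In all samples the reads lay towards the 5′ end: 95.7% and 100% in K700E and 87.0% and 91.4% in WT of overlaps fell on the 10 of 21 non-overlapping introns nearest to it. Of the 31-base stretches in annotated SMPD4P1 transcripts 1.28% also occur in SMPD4 transcripts. SMPD4 itself had 268 and 157 OPM in K700E and 120 and 301 in WT, with overlapping groups.

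FCGR2C encodes a low-affinity Fc gamma receptor and is annotated as a polymorphic pseudogene (ENSG00000244682.7, chromosome 1, 161581339 to 161605662, plus strand). It had 28.3 and 263 OPM in the K700E samples, against 192 and 1803 in the WT samples. WT replicate 1 lay below K700E replicate 2, so the groups overlap, and replicate 2 exceeded replicate 1 by 9.29-fold in K700E and 9.38-fold in WT. In K700E replicate 1 no intron had more than 1 read, so the least number of reads behind its 13 overlaps is 1. Without WT replicate 2 the mean of WT is the 192 of replicate 1, against a K700E mean of 146.

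FCGR2C shares sequence with its neighbours, and the sources used here do not give how reads that match more than 1 copy were counted. Of the 31-base stretches in FCGR2C transcripts 30.8% also occur in FCGR2A transcripts and 24.2% in FCGR2B transcripts. The junction sequence of the FCGR2C intron from 161591399 to 161592128 and that of the FCGR2B intron from 161673230 to 161673959 are shown because they differ at 0 of their bases, so that a read confined to them could come from either gene.
FCGR2C exon junction: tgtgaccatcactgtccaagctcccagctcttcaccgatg
FCGR2B exon junction: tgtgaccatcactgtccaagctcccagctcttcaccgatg
FCGR2B, the inhibitory receptor, had 0 and 0 OPM in K700E and 6.68 and 81.0 in WT. FCGR2A, an activating receptor, had 246 and 229 in K700E and 102 and 450 in WT. In all 3 genes WT replicate 2 was the highest sample. From the FCGR2C exon nearest the 5′ end, 7 junction reads in K700E replicate 2 joined to the next annotated exon and 12 skipped it, and in WT the counts were 2 and 65 against 12 and 83.

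CCDC26 is a long non-coding RNA gene (ENSG00000229140.9, chromosome 8, 128634199 to 129683679, minus strand). It had 8.70 and 19.8 OPM in the K700E samples, against 2.97 and 69.2 in the WT samples. WT replicate 2 alone was high and WT replicate 1 was the lowest of all samples, so the groups overlap. Without WT replicate 2 the difference turned from -21.8 to 11.3 OPM. Of the 82 overlaps in WT replicate 2, 31 lay over 1 intron of 175197 nt (129399685 to 129574881), 27 of them with its junction, against 0 and 0 reads in K700E and 1 in WT replicate 1.

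Splicing efficiency could be compared between the lines for 7 of the 10 genes, which had at least 10 overlaps in every sample; DOCK2, LINC00624 and CCDC26 did not. In edgeR's quasi-likelihood test 0 of these 7 passed, with an adjusted p of 1.00 for each, and 0% of 5085 genes passed. Over those 5085 genes 170 had an unadjusted p under 0.05 and DESeq2 called 1. The 7 genes were 4 lower and 3 higher in K700E, with a median difference of -3.12 percentage points against -2.55 over all genes tested. The minimum is one of overlaps and not of reads. In K700E replicate 1 FCGR2C and RIC8A passed it with 13 and 11 overlaps, which rest on at least 1 read each. Without that sample the FCGR2C difference turned from -16.8 to 4.15 percentage points, so the count of directions carries little weight. The groups overlapped in all 7, whereas over all genes tested both K700E samples lay below both WT samples in 21.1% and above in 10.3%. The denominator of this share is the count on which the genes were chosen, and for each gene the line with low coverage sets the precision.

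PSAP and PTPRC were spliced in most overlaps in every sample. PSAP efficiency was 89.7% and 85.0% in K700E and 83.1% and 86.4% in WT, a difference of 2.58 percentage points (edgeR adjusted p = 1.00) beside the 5.82-fold lower coverage in K700E. The 3 most covered PSAP introns carried their junction in 96.9 to 100% of reads in each K700E sample and 96.6 to 100% in each WT sample. PTPRC efficiency was 83.6% and 76.7% in K700E and 86.6% and 80.0% in WT. Replicate 2 was lower than replicate 1 in both lines.

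The 3 most covered PTPRC introns differed widely in length. The intron of 88 nt near the 5′ end carried its junction in 72.7% (95% Wilson interval 55.8 to 84.9%) and 75.2% (67.9 to 81.2%) of reads in K700E and 53.6% (35.8 to 70.5%) and 69.9% (59.9 to 78.3%) in WT. An intron of 89 nt (198732391 to 198732479) did so in 66.0% (51.7 to 77.8%) and 77.4% (64.5 to 86.5%) in K700E and 61.1% (44.9 to 75.2%) and 48.1% (35.4 to 61.1%) in WT. Both K700E samples lay above both WT samples at these 2 introns, and no test was run on single introns. The share of all introns at which this occurs was not taken, so nothing is read from it. Over whole genes 10.3% of those tested for efficiency had both K700E values above both WT values. Over all PTPRC introns the K700E minus WT difference was -3.12 percentage points, with overlapping groups. At the intron of 88 nt the intervals of all samples overlapped. At that of 89 nt only the intervals of K700E replicate 2 and WT replicate 2 did not overlap each other. The intron of 53012 nt that follows the intron of 88 nt (198639335 to 198692346) carried its junction in 93.3% and 100% of reads in K700E and 88.9% and 100% in WT.

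The other 5 tested genes were spliced in fewer overlaps. DYNC1LI2 efficiency was 51.5% and 33.7% in K700E and 50.4% and 33.2% in WT, so that its replicates differed far more than the lines did. RIC8A stood at 27.3% and 35.9% in K700E and 35.8% and 38.2% in WT, the K700E values from 11 and 39 overlaps. SMPD4P1 stood at 26.7% and 36.4% in K700E and 25.9% and 28.8% in WT, the K700E values from 30 and 11 overlaps that rest on at least 7 and 2 reads.

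VEPH1 stood at 25.1% and 26.2% in K700E, on either side of which lay the WT samples at 42.9% and 16.7%. The WT values come from 49 and 30 overlaps that rest on at least 3 and 2 reads. FCGR2C stood at 0% and 41.8% in K700E and 35.5% and 39.9% in WT, where the 0% is 0 of 13 overlaps that rest on at least 1 read. The FCGR2C intron with the highest count (161588443 to 161589561) carried its junction in 0 of 1 and 20 of 20 reads in K700E and 15 of 18 and 151 of 156 in WT. Annotated alternative introns overlap, and not all can be removed from 1 transcript. With 1 intron kept of each overlapping set, VEPH1 stood at 28.4% and 23.9% in K700E and 46.7% and 13.3% in WT.

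DOCK2 and LINC00624 had values in WT alone. DOCK2 was spliced in 67.3% and 75.6% of overlaps in the WT samples, and in 85.5% and 91.1% with 1 intron kept of each overlapping set. LINC00624 was spliced in 71.2% and 67.2% of overlaps in the WT samples. CCDC26 had 5.56% of 18 overlaps spliced in K700E replicate 2 and 35.4% of 82 in WT replicate 2, and 4 overlaps in each of the other samples.

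**Figure D3:**
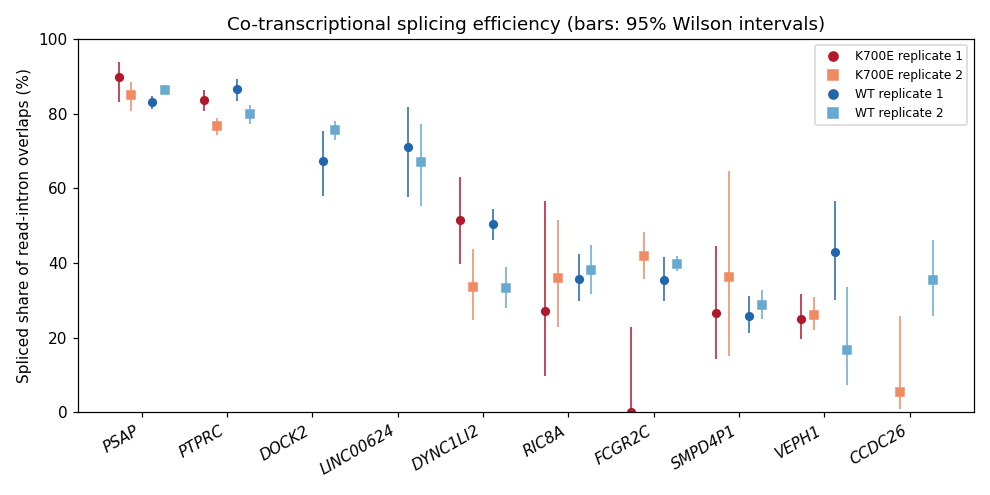
Spliced share of read-intron overlaps in percent for each of the 10 genes, with 1 point per sample of at least 10 overlaps (K700E in red and orange, left; WT in dark and light blue, right) and 95% Wilson intervals that cover counting error only and treat overlaps as separate reads. K700E and WT samples overlap for the 7 genes with values in all samples, and in DYNC1LI2 and PTPRC the replicates of each line differ by more than the means of the lines.

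Of 68 other genes tested within 500 kb of 1 of the 10, 31 were higher and 37 lower in K700E. Their median log2 fold change was -0.13, and that over all genes tested was -0.02. In edgeR 0 passed and 7 had an unadjusted p under 0.05, against 428 of all 8608 genes tested. Of these 7, 4 lay beside DYNC1LI2 and 3 beside SMPD4P1. The only tested neighbour of VEPH1, the cyclin gene CCNL1, had 281 and 431 OPM in K700E and 1311 and 317 in WT. Beside DOCK2, the leukocyte adaptor gene LCP2 had 91.4 and 106 in K700E and 17.1 and 100 in WT, and the spindle protein gene SPDL1 had 47.9 and 52.8 in K700E and 31.9 and 32.9 in WT. Both had reads in each K700E sample, unlike DOCK2 itself.

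Beside SMPD4P1 on chromosome 22, 6 of 15 tested genes had both K700E values under both WT values and 0 had both above, against 12.3% and 22.5% of all genes tested. The 3 of these with the smallest p rest on few reads, each counted at many introns. AIFM3, a mitochondrial apoptosis-inducing factor relative, had 0 and 0 OPM in K700E and 23.0 and 52.3 in WT, from at least 1 and 2 reads in WT. LRRC74B had 0 and 0 in K700E and 10.4 and 33.8 in WT, from at least 1 and 3 reads in WT. The purinergic receptor gene P2RX6 had 4.35 and 2.20 in K700E and 13.4 and 66.7 in WT, from at least 1 and 1 reads in K700E and 1 and 6 in WT. Their edgeR adjusted p-values were 0.788, 0.796 and 0.863, and at this depth no fold is given. These 3 lie 308, 389 and 353 kb from SMPD4P1, while the nearest tested gene, the Mediator subunit gene MED15, had 1618 and 702 in K700E and 307 and 917 in WT. It was not tested whether a long read counted in more than 1 adjacent gene, so the 15 genes may not be separate observations.

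Beside DYNC1LI2 on chromosome 16, 13 of 17 tested genes had a higher fitted value in K700E, the direction opposite to DYNC1LI2, and 7 had both K700E values above and 1 both below, against 22.5% and 12.3% of all genes tested. The 3 of these with the smallest p again rest on few reads. Whether a long read was counted in more than 1 adjacent gene was not tested, so the 17 genes may not be separate observations. The kidney cadherin gene CDH16 had 56.6 and 28.6 OPM in K700E and 0.743 and 0 in WT, the heat shock factor gene HSF4 119.6 and 39.6 in K700E and 5.20 and 6.75 in WT, and the apoptosis repressor gene NOL3 30.5 and 15.4 in K700E and 0 and 1.69 in WT (edgeR adjusted p = 0.788, 0.788 and 0.942). The least number of reads was 1 and 1 in K700E and 1 and 0 in WT for CDH16, 3 and 2 in K700E and 1 and 2 in WT for HSF4, and 1 and 1 in K700E and 0 and 1 in WT for NOL3. Beside RIC8A the median log2 fold change was -0.44, against -0.02 over all genes tested. There 7 of 8 tested genes had a lower fitted value in K700E. Among these the proteasome subunit gene PSMD13, 21.4 kb away, had 67.4 and 85.7 in K700E and 170 and 164 in WT (edgeR adjusted p = 0.995).

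**Figure D4:**
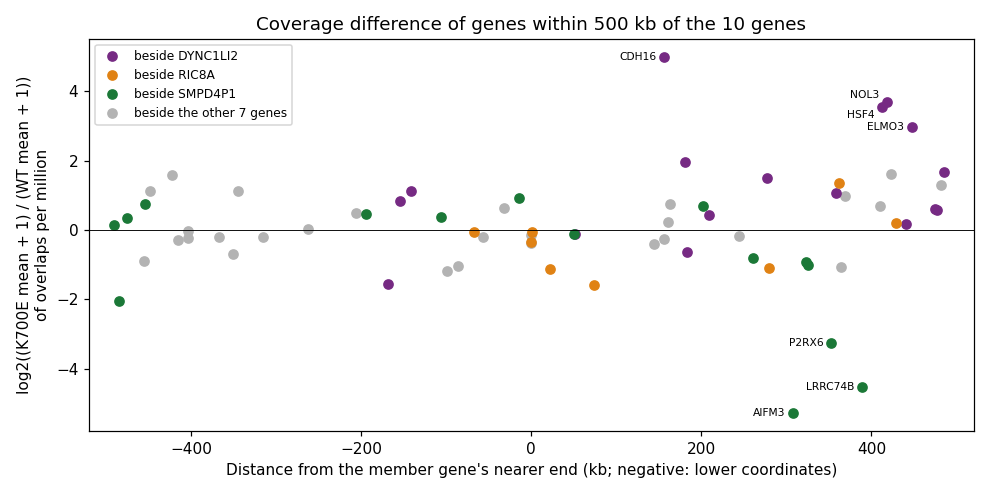
The log2 ratio of mean OPM plus 1, K700E over WT, for each of the 68 tested genes within 500 kb of the 10 genes, against the distance in kb from the nearer end of the member gene. Genes beside SMPD4P1 (green) include AIFM3, LRRC74B and P2RX6 far below 0, genes beside DYNC1LI2 (purple) include CDH16, HSF4, NOL3 and ELMO3 above 0, and most others lie near 0; labels mark an unadjusted edgeR p under 0.05, and of the genes named here no sample has a single-intron count over 6.

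In the families and pathways of the 10 genes 0 related genes passed in edgeR over all genes tested. Among DOCK proteins and their RAC partners 5 of 11 tested genes had higher and 6 lower fitted values in K700E. DOCK10, another leukocyte RAC and CDC42 exchange factor, had 0 and 0 OPM in K700E and 96.5 and 73.4 in WT, from at least 9 and 6 reads in WT (edgeR adjusted p = 0.788). Counting 3 reads over both K700E libraries as the limit, these reads were at least 2.68-fold lower in K700E. ELMO1, which binds DOCK2, had 139 and 167 in K700E and 17.1 and 26.2 in WT from at least 5 and 8 reads in K700E and 2 and 3 in WT (log2 fold change 2.62 ± 0.69, standard error; edgeR adjusted p = 0.788). The groups of samples were separate at both genes, which were named for their small p. Of the 11 tested genes of this list, 5 had both K700E values above both WT values and 2 had both below. Over all genes tested these shares were 22.5% and 12.3%. DOCK10 passed in DESeq2 and in edgeR with no filter on low counts.

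Of 8 TGF beta receptor and SMAD genes, 7 had lower and 1 higher fitted values in K700E. They were listed because VEPH1 has been described as an inhibitor of that pathway. Their median log2 fold change was -1.70, against -0.02 over all genes tested. The directions were not tested as a set, and some rest on few reads. The least number in K700E was 0 and 3 for SMAD7 and 1 and 4 for ACVR1B, against 6 and 17 for SMAD2. TGFBR1 had 23.9 and 41.8 OPM in K700E and 147 and 96.2 in WT, and the co-receptor TGFBR3 had 34.8 and 50.6 in K700E and 214 and 61.6 in WT (edgeR adjusted p = 0.863 and 0.985). Of 14 lysosomal sphingolipid genes 12 had lower and 2 higher fitted values, with a median of -0.55 against the same -0.02, also not tested as a set. NEU1, a lysosomal sialidase, had 6.53 and 4.40 in K700E and 67.6 and 18.6 in WT, and the sorting receptor gene SORT1 had 224 and 385 in K700E and 413 and 518 in WT (edgeR adjusted p = 0.886 and 0.999). Of 12 dynein and dynactin genes 7 were lower and 5 higher. The dynactin subunit gene DCTN1 had 80.5 and 62.7 in K700E and 203 and 194 in WT, and the dynein heavy chain gene DYNC1H1 had 1196 and 1944 in K700E and 3360 and 2696 in WT (edgeR adjusted p = 0.855 and 0.985).

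Of 7 tested receptor phosphatase and SRC kinase genes of CD45 signalling 4 had higher and 3 lower fitted values, with a median of 0.95. LYN, a SRC family kinase, had 146 and 73.7 in K700E and 24.5 and 56.5 in WT, and PTPRA had 91.4 and 109 in K700E and 23.8 and 68.4 in WT (edgeR adjusted p = 0.999 for both). G alpha genes and RIC8B were 3 higher and 3 lower, with GNAS at 39.2 and 102 in K700E and 43.1 and 48.1 in WT and GNA13 at 6.53 and 14.3 in K700E and 18.6 and 10.1 in WT (edgeR adjusted p = 0.999 for both). Of the Fc gamma receptor list 1 gene, FCGR2A, was tested.

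For each of the 10 genes the gene with the most similar profile was taken as the one with the smallest Euclidean distance over the 4 samples, on log2 of OPM plus 1 centred on its mean, among 12075 genes. For LINC00624 it was INPP5A, an inositol phosphatase gene on chromosome 10, with 0 and 0 OPM in K700E and 43.8 and 51.5 in WT. For DOCK2 it was NCF1, which encodes a subunit of the phagocyte oxidase, with 0 and 0 in K700E and 16.3 and 55.7 in WT, at a distance of 2.93, far larger than the 0.221 of INPP5A. For DYNC1LI2 it was the cyclin gene CCNG1, with 272 and 213 in K700E and 783 and 481 in WT. For CCDC26 it was the fatty acid oxidation gene HADH, with 19.6 and 39.6 in K700E and 7.43 and 122 in WT. The remaining nearest genes were GOLGA6L22 for VEPH1, ACAA2 for PSAP, SLC6A16 for FCGR2C, AC010655.2 for PTPRC, BRD1 for RIC8A and FKBP9P1 for SMPD4P1, at distances from 0.0874 to 0.633. GOLGA6L22, NCF1 and BRD1 rest on at most 3 reads over any intron in any sample, and with 4 samples many genes can lie this close.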

How the data were processed

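Chromatin-bound RNA of 4 K562 samples was sequenced. For each sample the authors deposited, per annotated intron, raw counts of reads that span it and of reads carrying the junction, and the ratio of these, CoSE. Reads were handled with cutadapt and minimap2 on hg38, per the submitters' processing notes; the sources used here give no versions and no rule for assigning reads to introns. Labels name 15 PCR cycles and no molecular identifiers, so intervals cover counting error only. Tables of RNA 3′ end positions bear no gene identifiers and were not used.

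Rows were placed on GENCODE 29 (GRCh38) by transcript, intron number, start and strand (87.3 to 87.6% placed). Rows of the same coordinates counted once, at their highest count, and counts were summed per gene. Junction reads beyond the reads of an intron were not counted as spliced overlaps. Coverage was fitted with edgeR 4.0.16 in R 4.3.3 (filterByExpr, TMM, quasi-likelihood F test) and efficiency as the interaction of spliced against unspliced counts with genotype (at least 10 overlaps per sample, estimated dispersion), with Benjamini-Hochberg adjustment; DESeq2 1.42.0 was an alternative. Both fits were run on simulated counts drawn separately for each gene. These did not model single reads that count at several introns, so they do not show how the fits treat such reads. The members, lists and settings were chosen with earlier results of these data known. Genes were named by rule: the 10, of each list and of the neighbours as 1 list those with an adjusted p under 0.05 or, with none, the 2 with the smallest p, the nearest profiles, and up to 3 most covered introns per gene. HSF4, LRRC74B, P2RX6, NOL3, ELMO3, PSMD13, MED15, CCNL1, LCP2, SPDL1, EPS8L2, SMPD4, CHD1L, FCGR2B, the junctions compared and other introns were chosen after their values were seen. Junction sequences were read from GENCODE 29 transcripts. Counts over introns do not show which SF3B1 allele a sample carried, and groups rest on the labels alone.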

Additional observations from a re-analysis of the deposited data

How the results depend on the processing

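The number of genes with an adjusted p under 0.05 for coverage, 0 in edgeR as reported, was 30 with no filter on low counts, 25 in DESeq2 and 0 to 26 when 1 library was left out, the highest without WT replicate 2; it stayed at 0 with DESeq2 size factors, library totals, the most used of overlapping introns, the highest single intron and all rows of the transcripts. For efficiency it was 1 in DESeq2 and 0 under the others. Among neighbouring genes 1 (EPS8L2) passed with no filter and 0 to 0 with 1 library left out; among related genes 1 (DOCK10) passed with no filter and 1 in DESeq2, and 0 to 1 with 1 library left out. EPS8L2 had 82 overlaps in K700E replicate 1, from at least 2 reads, and 0 in K700E replicate 2 and in both WT samples. Where only 1 sample of a line was left, it was assumed to vary like the other line.

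The replicate numbers, taken from the titles, do not pair the samples: inside the deposited tables the K700E samples bear the numbers 2 and 3, so that their numbering is uncertain, and deviations of same-numbered samples correlated at -0.08 over 8608 genes, and with the replicate number as a block 0 genes passed for coverage and 0 for efficiency. Coverage differences of the 10 genes kept their direction in 89 of 90 alternatives; with 1 library left out CCDC26 ranged from -55.0 to 11.3 OPM, the highest without WT replicate 2. Efficiency differences turned in 8 of 74 alternatives; 71 of these gave an adjusted p, 0 of them under 0.05, and 3 (FCGR2C, RIC8A and SMPD4P1 with 1 intron kept of each overlapping set) gave none. With 1 library left out VEPH1 ranged from -17.2 to 8.998 percentage points (positive without WT replicate 1), FCGR2C from -37.7 to 4.15 (positive without K700E replicate 1), PTPRC from -6.56 to 0.319 (positive without K700E replicate 2, and at 0.210 without WT replicate 1), SMPD4P1 from -0.686 (without K700E replicate 2) to 9.01, and DYNC1LI2 from -8.09 (without K700E replicate 1; -7.75 without WT replicate 2) to 9.73. DYNC1LI2 also turned to -1.71 with 1 intron kept of each overlapping set. The causes were not tested. The filter, tool and block do not enter the coverage levels of the 10 genes. K700E replicate 1 was the shallowest library, and for SMPD4P1 K700E replicate 2 held the fewest reads.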

Other observations

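At some introns of the 10 genes more junction reads than reads over the intron were deposited, 26 introns in all in at least 1 sample. PTPRC held 14 of them, PSAP 6, DOCK2 4 and VEPH1 and SMPD4P1 1 each. At the VEPH1 intron from 157460356 to 157470313 there were 5 and 13 junction reads against 3 and 6 reads over the intron in K700E, and 3 and 0 against 2 and 0 in WT. At the SMPD4P1 intron from 20626180 to 20627162 there were 3 and 2 junction reads against 1 and 1 reads in K700E, and 11 and 8 against 14 and 14 in WT. How a read comes to count for a junction and not for its intron was not tested.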
